A study of Homo sapiens with 12 samples.

Results

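Genes that mark or build the definitive endoderm were followed through open-chromatin peak lists of a cell line that is not endodermal: EOMES, GSC, GATA4, GATA6, SOX17, CER1, HHEX and CXCR4. These 8 genes were chosen by name out of 19974 protein-coding genes of RefSeq on chromosomes 1-22 and X. The rule held no measured value, but earlier results of these data were known when the genes were chosen. For each gene the window was the gene body plus 50 kb on each side, and every peak of 9 deposited lists that touched a window was kept. This gave 111 sites of the 311447 regions into which the peaks of all 9 lists merge. A site is named below by its gene and by the distance in kb of its centre from the gene's start, with plus meaning downstream in the direction of transcription.

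The lists came from ATAC-seq, in which the Tn5 transposase cuts accessible DNA, of U2OS, an established human osteosarcoma cell line, in 12 samples forming 6 groups of 2. In the FOXA2 set the groups were cells labelled wild type, cells with full-length FOXA2 and cells with FOXA2 lacking its CTD (called CTD deletion below). In the SOX2 set they were a separate wild type, cells with full-length SOX2 and cells with SOX2 fused to the FOXA2 CTD (called the fusion). All 4 constructs were Tet-on transgenes, switched on over 4 days by 500 ng/ml of doxycycline, so that expression was driven by the drug and not by an endoderm programme. The wild-type samples have no treatment given, while the protocol text attached to them mentions doxycycline, so whether they received it is unknown. The label of the wild type of the SOX2 set also names the SOX2 cell line, so that it may be parental U2OS or that line uninduced. The FOXA2 set gave a peak list for every library. The SOX2 set gave a single list per group, in the format of the IDR procedure, which scores how reproducibly a pair of inputs ranks each peak. Those inputs were taken to be both samples of the group. Nothing says that the samples were separate cultures.

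Definitive endoderm is the germ layer that forms gut, liver, pancreas and lung. Nodal or activin signalling through SMAD proteins first turns on EOMES and GSC in the mesendoderm, then GATA6, GATA4 and SOX17, together with FOXA2, a forkhead factor able to bind its sites in closed chromatin. HHEX and CER1 mark the anterior part of the layer, and CXCR4 is the surface receptor most used to sort these cells. SOX2 belongs to another branch: it keeps pluripotent and neural cells in their state and shares an HMG-box DNA-binding domain with SOX17. An open site in such a window is an accessible stretch of DNA, which need not regulate the gene it lies near, and accessibility is not expression.

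The DNA just before the start of 3 of these genes is shown because the results on the starts turn on it. RefSeq promoter sequences (GRCh38.p14) were matched by symbol for 6 of the 8 genes, and the 250 bases before the start are given 5′ to 3′ on the gene's own strand. In GATA6 (chr18:22169339-22169588, plus strand) and GSC (chr14:94770114-94770363, minus strand), capitals mark the bases that lie inside a called site. In CER1 (chr9:14722734-14722983, minus strand), which had no called site there, capitals mark a SOX motif.
GATA6: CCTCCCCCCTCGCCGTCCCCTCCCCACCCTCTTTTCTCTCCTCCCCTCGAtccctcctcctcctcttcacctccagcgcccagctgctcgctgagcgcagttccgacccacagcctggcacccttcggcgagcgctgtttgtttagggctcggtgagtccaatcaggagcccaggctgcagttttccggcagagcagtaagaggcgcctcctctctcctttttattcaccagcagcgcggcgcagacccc
GSC: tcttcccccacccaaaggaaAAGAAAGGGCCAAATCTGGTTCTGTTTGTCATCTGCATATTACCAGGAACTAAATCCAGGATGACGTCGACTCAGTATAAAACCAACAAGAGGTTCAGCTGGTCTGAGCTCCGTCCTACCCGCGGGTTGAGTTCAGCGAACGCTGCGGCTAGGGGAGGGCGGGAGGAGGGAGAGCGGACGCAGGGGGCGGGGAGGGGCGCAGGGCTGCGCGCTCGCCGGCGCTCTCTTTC
CER1: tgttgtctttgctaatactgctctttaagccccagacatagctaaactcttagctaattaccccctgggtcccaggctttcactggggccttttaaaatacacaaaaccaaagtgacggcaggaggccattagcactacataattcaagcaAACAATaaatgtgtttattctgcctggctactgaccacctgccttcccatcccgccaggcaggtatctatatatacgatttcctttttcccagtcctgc
The called site reached 50 of the 250 GATA6 bases, at the end away from the gene, and 230 of the 250 GSC bases. The motifs searched on both strands, in the 8 promoters of the 6 matched genes, were the forkhead motifs TGTTTAC and TATTTAC, the SOX motifs AACAAT and AACAAAG, the AP-1 motif TGANTCA and the GATA motif AGATAA. The only match was AACAAT in CER1, 99 bases before the start. Over 22156 promoters of the same length, 2.46% held TGTTTAC, 1.87% TATTTAC, 6.47% AACAAT, 3.71% AACAAAG, 5.36% TGANTCA and 7.08% AGATAA. The promoters shown differ in base composition, with a GC content of 64.4% in GATA6, 59.6% in GSC and 45.2% in CER1, against a median of 62% over all promoters.

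Several features of the lists bear on every count below. The 6 lists of the FOXA2 set held 19862, 25088, 161136, 57946, 78820 and 146854 peaks (wild type 1 and 2, full-length 1 and 2, CTD deletion 1 and 2), with lowest −log10 p values of 3.44, 5.43, 2.01, 5.22, 2.01 and 2.01. For the SOX2 set, 48142 of 110813 entries passed a global IDR of 0.05 in the wild type, 65628 of 147763 with SOX2 and 75544 of 177650 with the fusion. Wild type 2 and full-length 2 had no peak on the mitochondrial chromosome, whereas the other 7 lists had 2 each. Read depth is unknown. Both wild-type lists of the FOXA2 set had a peak in the FOXA2 gene, with a −log10 p of 9.08 in wild type 1 (chr20:22581848-22582527) and 44.2 in wild type 2 (chr20:22581827-22582860), and these overlapped the peak of full-length 1 (chr20:22581715-22583222). In the fusion list a peak lay at chr20:22581797-22582528 (−log10 p of 6.58), while the peaks of the other SOX2-set lists in that gene were elsewhere. A peak within 1 kb of the start of the osteoblast gene RUNX2 was present in 7 of the 9 lists and at SPARC in 9 of 9, and none was present at the hepatocyte gene ALB or the leukocyte gene PTPRC.

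The number of sites called about the endoderm genes followed the length of the lists. Wild type 1 called 9 of the 111 sites (8.11%, against 6.14% of all regions) and wild type 2 called 6 (5.41%, against 7.76%), and 3 were called in both. Windows of GSC, SOX17, CER1 and HHEX held no peak in either list. Only 3 of the 8 windows had a peak in wild type 1 and 3 in wild type 2, against 77% and 71.1% of the windows of all protein-coding genes. With the constructs the lists were longer, and 57 sites were called in full-length 1 (51.4%, against 49.8% of all regions), 14 in full-length 2 (12.6%, against 18%), 29 in CTD deletion 1 (26.1%, against 24.4%) and 51 in CTD deletion 2 (45.9%, against 45.1%). In the SOX2 set 21 sites were called in the wild type (18.9%, against 15.3%), 23 with SOX2 (20.7%, against 20.9%) and 20 with the fusion (18%, against 24.1%). These shares lie near those of all regions, so the rise from the wild-type to the construct lists is no result about these genes. The spread between libraries of 1 construct, 57 against 14, was wider than that between constructs.

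Most sites were seen once. Of the 111 sites, 70 (63.1%) were called in 1 list alone, close to 61.5% of all regions, and 61 of these 70 belonged to full-length 1, CTD deletion 1 or CTD deletion 2, the lists that reach down to a −log10 p of 2.01. Only 2 sites were called in all 9 lists, 1.80% against 2.08% of all regions, and neither is next to the start of its endoderm gene. In all, 77 sites were called in the FOXA2 set only, 12 in the SOX2 set only and 22 in both. Neither this split nor the 61 of 70 above was counted over all regions, so neither is a result about these genes. The number of sites per 100 kb of window ran from 4.91 at GSC and 7.59 at CER1 to 18.5 at SOX17, with a median over all protein-coding genes of 11.3.

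**Figure D1:**
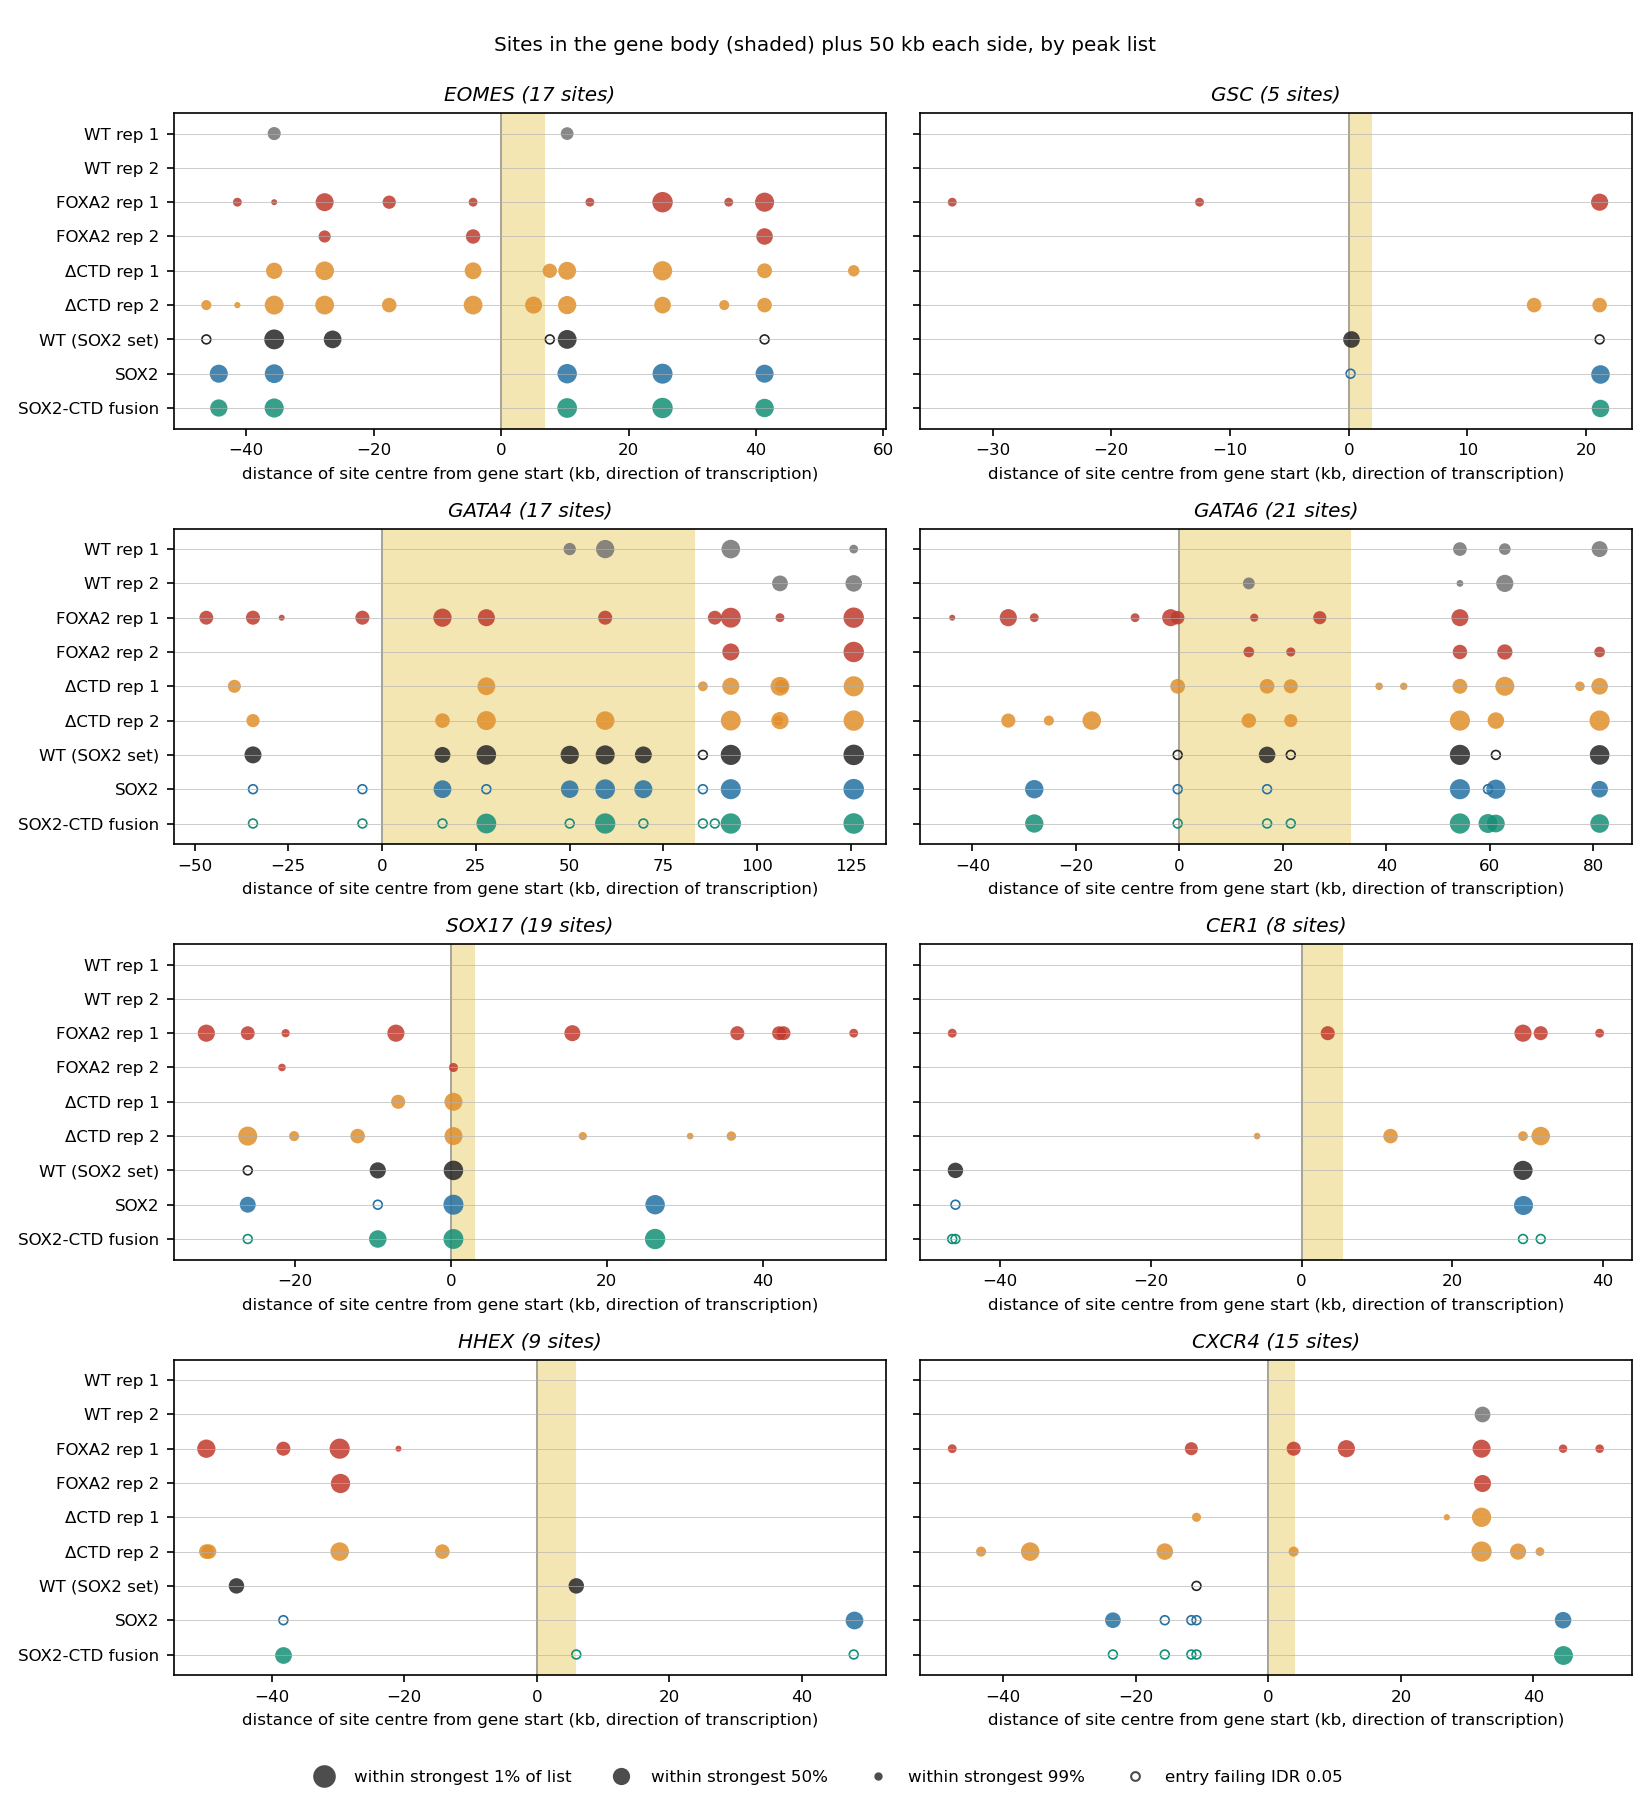
Each panel is 1 gene; the x axis is the distance of a site's centre from the gene start in kb in the direction of transcription, with the gene body shaded, and the y axis is the peak list. Filled points are called sites, larger where the peak stands higher among all entries of its own list, and open points are IDR entries that fail 0.05. The wild-type rows of the FOXA2 set are empty at GSC, SOX17, CER1 and HHEX.

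**Figure D2:**
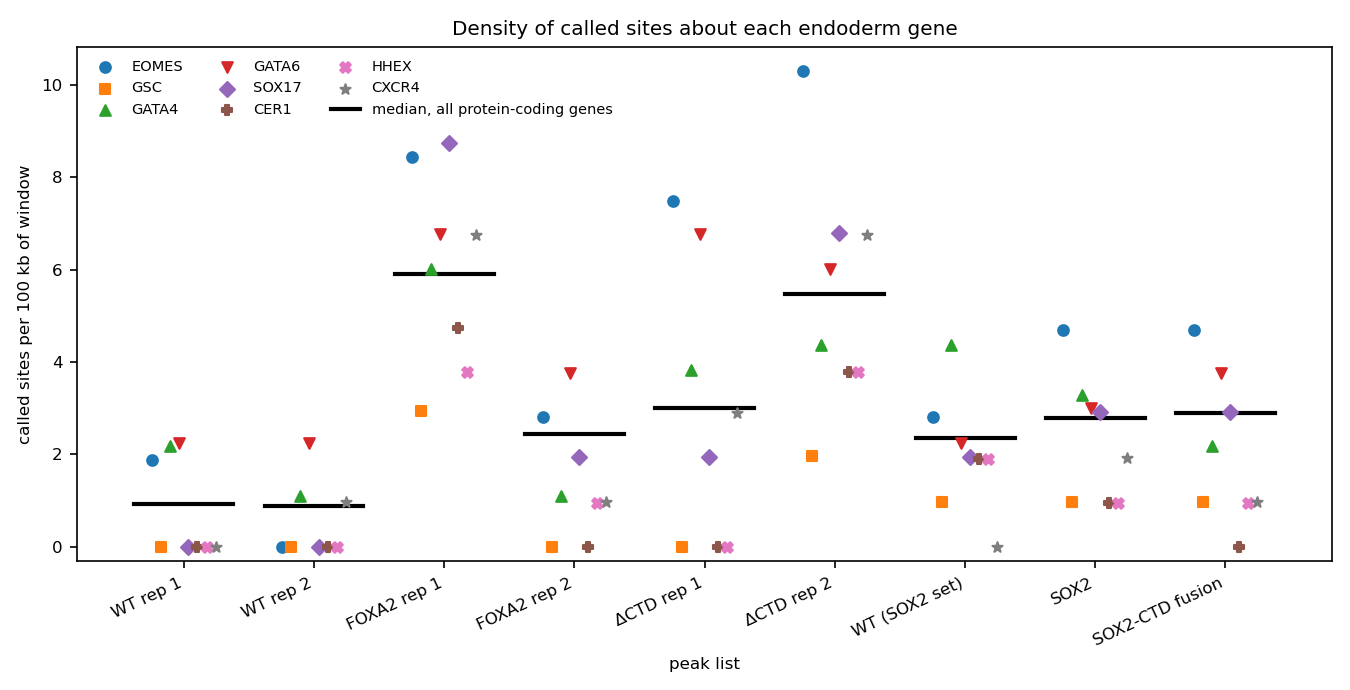
Called sites per 100 kb of window (y axis) in each of the 9 lists (x axis), with 1 marker per endoderm gene and a black line at the median over 19974 protein-coding genes. Full-length 1 and CTD deletion 2 stand highest, and the markers lie on both sides of the line in every construct list.

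A site counted as gained with a FOXA2 construct when both libraries of the construct called it and neither wild type did. By this rule 4 sites, 3.60% against 8.0% of all regions, were gained with full-length FOXA2: 3 at EOMES and 1 at HHEX. With less of a gap, 7 sites, 6.31% against 7.86% of all regions, were gained with the CTD deletion: 4 at EOMES and 1 each at GATA4, GATA6 and SOX17. The 3 EOMES sites gained with full-length FOXA2 were also gained with the CTD deletion. Each of the 7 CTD deletion gains also had a peak in at least 1 full-length library. No site was gained with full-length FOXA2 and absent from both CTD deletion lists, a class of 1.42% of all regions, and none was gained with the CTD deletion and absent from both full-length lists, a class of 1.73%. No member site was lost with either construct, where 0.131% of all regions were lost with full-length FOXA2 and 0.0482% with the CTD deletion.

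These FOXA2 counts changed with the rule and the libraries used. Leaving out a library let the other stand alone for its group, so the gained count could not fall. None of the counts in this paragraph was made over all regions. Without full-length 2 the gained count was 50, and without full-length 1 it was 7. Without CTD deletion 1 it was 41, without CTD deletion 2 it was 20, and without wild type 1 it was 11. Among lists with mitochondrial peaks alone, 52 sites were gained with full-length FOXA2 and 8 with the CTD deletion. Between the lists without such peaks, 9 were gained with full-length FOXA2. When each list of the set was cut to its 19862 strongest peaks, 1 gain with full-length FOXA2 remained, HHEX -29.7 kb, and none with the CTD deletion.

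In the SOX2 set a site counted as gained when the construct's list called it and the wild-type list did not. With 1 list per group there is no count per sample and no test; the only spread is that of the paired input values given with each entry. SOX2 gained 11 sites (9.91%, against 11.2% of all regions) and the fusion gained 10 (9.01%, against 14.4%), and 8 sites were gained with both. SOX2 lost 9 sites (8.11%, against 5.57%) and the fusion lost 11 (9.91%, against 5.63%), and 7 were lost with both. The shares of all regions gained with both or lost with both were not counted. The balance of gains and losses turned with the settings: it was 9 gained and 3 lost for SOX2 and 7 and 3 for the fusion under the stricter IDR limit of 0.01, 30 and 11 and 33 and 10 with all entries, 8 and 10 and 6 and 12 with equal numbers of strongest entries, and 23 and 12 and 27 and 14 with a flank of 100 kb. Both comparisons use the same wild-type list. All 13 sites gained with either construct lay more than 10 kb outside the gene body: with a flank of 10 kb, SOX2 gained 0 sites and lost 5, and the fusion gained 0 and lost 6. A flank of 10 kb was not counted over all genes, so this cannot be read as a trait of the endoderm genes. Many lost sites kept an entry in the construct's list: 6 of the 9 sites lost with SOX2 had a SOX2 entry above the IDR limit of 0.05, as did 8 of the 11 lost with the fusion in the fusion list. Of the gained sites, 4 of 11 and 3 of 10 had a failing wild-type entry. Where both lists had an entry, the input values of construct and wild type overlapped at 1 of 4 sites gained and 2 of 6 lost with SOX2, and at 3 of 3 gained and 1 of 8 lost with the fusion. These counts of failing entries and overlapping inputs were not made over all regions, so they are no result about these genes. The value given for an entry below is the lower of its inputs.

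**Figure D3:**
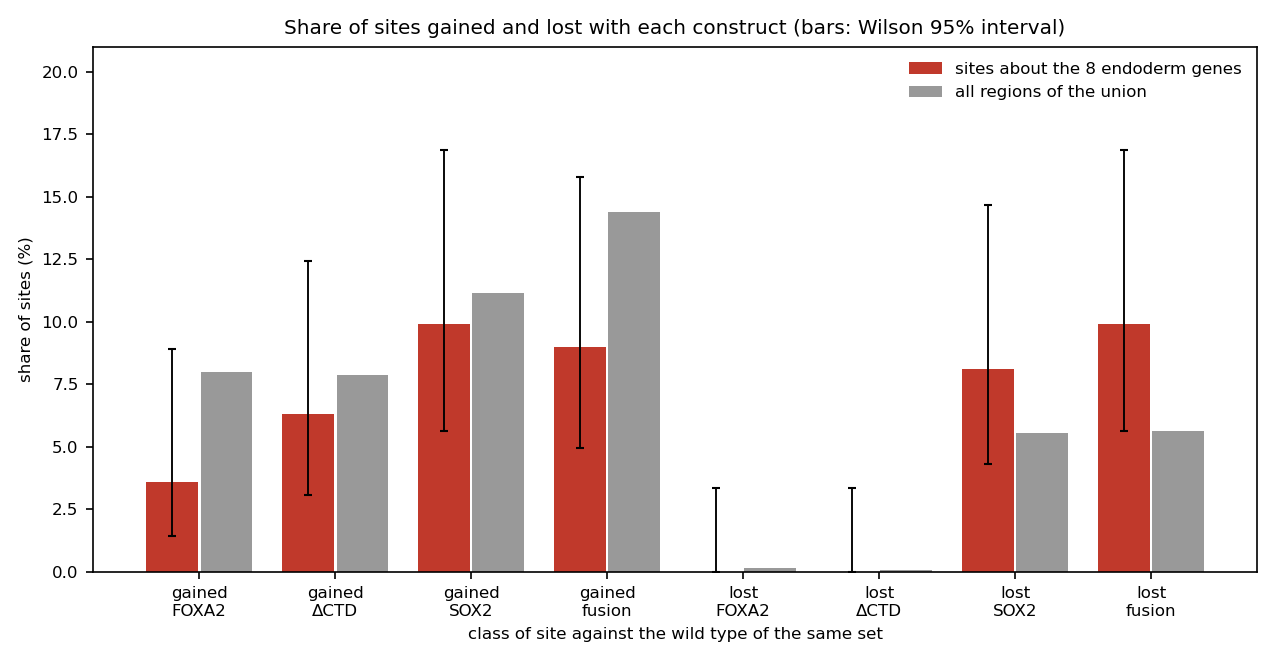
The y axis is the share of sites (%) and the x axis the 8 classes of gain and loss; red bars are the 111 sites about the endoderm genes with Wilson 95% intervals, which cover counting error only, and grey bars are all regions. The shares gained with full-length FOXA2 (3.60%) and with the fusion (9.01%) are below those of all regions (8.0% and 14.4%), and the share lost with the fusion (9.91%) is above (5.63%), each with the value of all regions inside or at the edge of the interval.

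**Figure D4:**
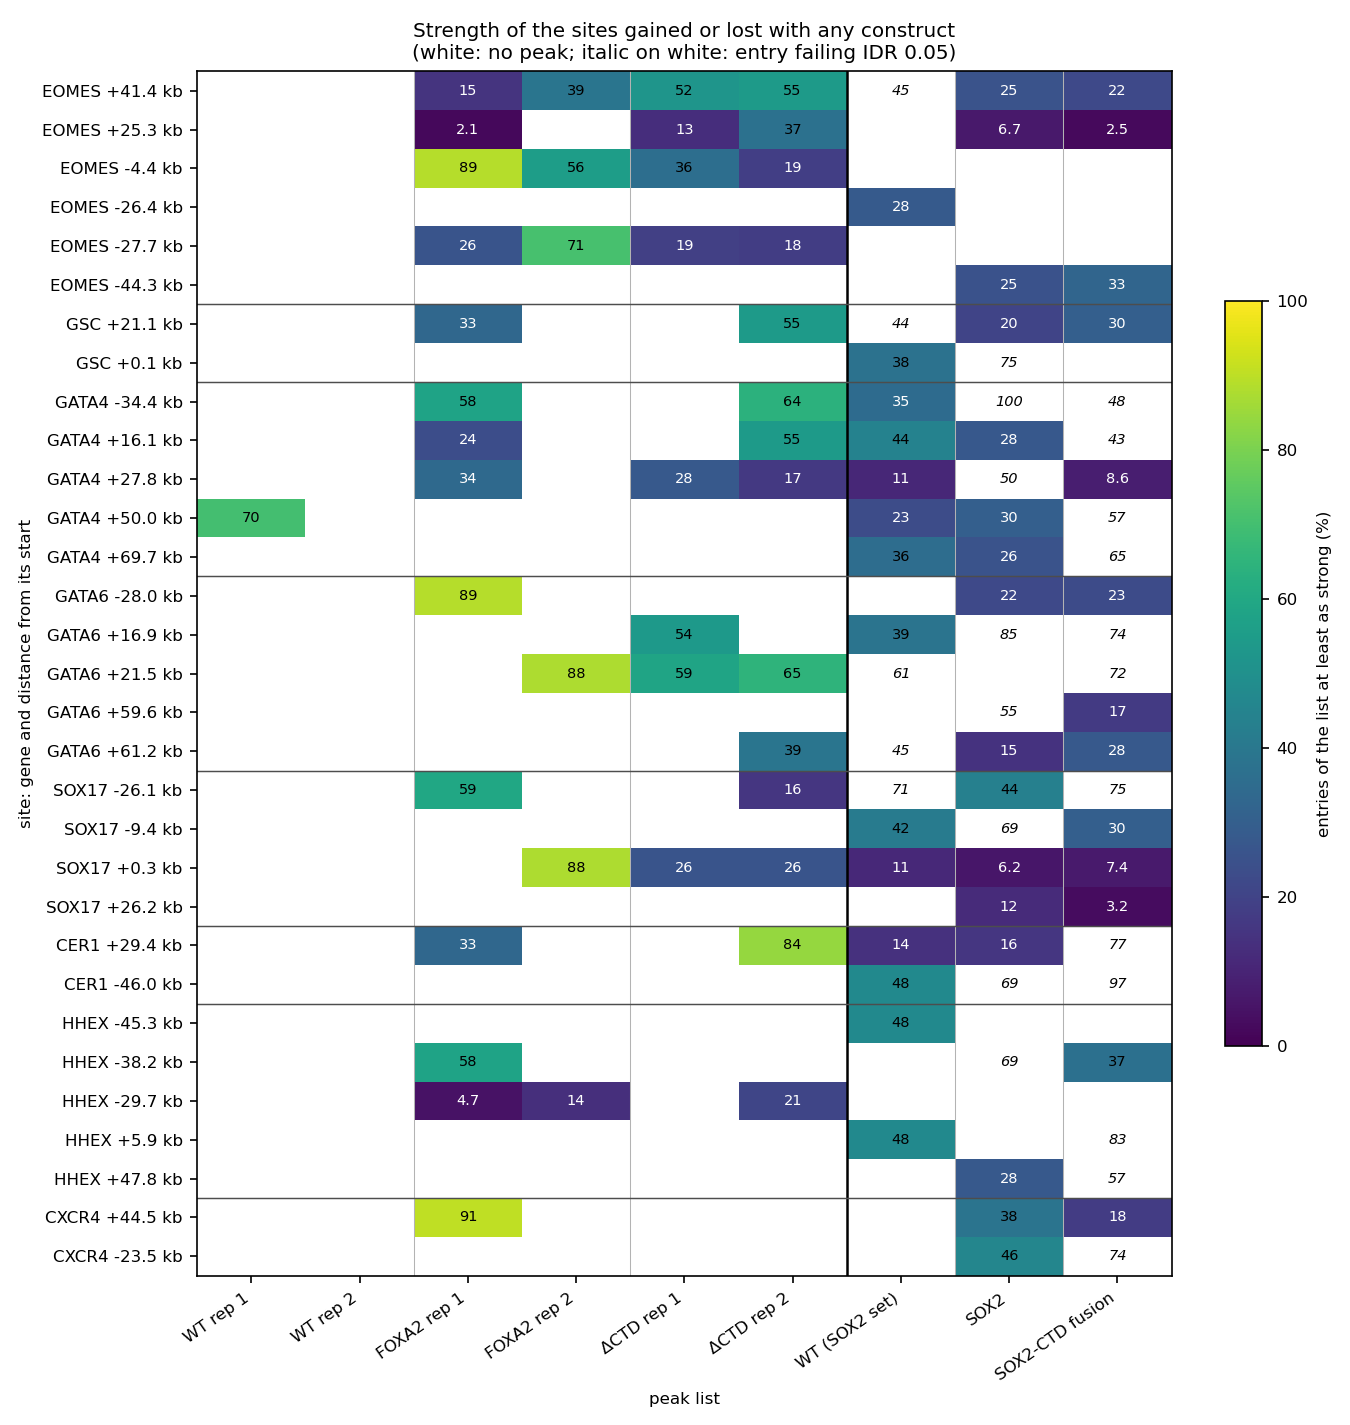
Rows are the 31 sites gained or lost with any construct and columns the 9 lists. Each number and colour is the percentage of that list's entries that are at least as strong, and white cells have no peak or, in italics, an entry failing IDR 0.05. In the SOX2 set the entries counted include those failing IDR 0.05, so its percentages are not on the scale of the FOXA2 set. Among the cells with no peak in any wild-type list, EOMES +25.3 kb reaches the top 2.10% in full-length 1 and 2.51% with the fusion, SOX17 +26.2 kb the top 3.19% with the fusion, and HHEX -29.7 kb the top 4.71% in full-length 1.

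At the gene starts, 3 of the 8 genes had a peak within 1 kb in some list, against 75.7% of 15812 protein-coding genes with a RefSeq start. No start was called in wild type 1 or wild type 2, where 38.5% and 36.7% of genes had one. One start was called in full-length 1 (66.2% of genes), 1 in full-length 2 (58.1%), 2 in CTD deletion 1 (51.8%), 1 in CTD deletion 2 (66.4%), 2 in the wild type of the SOX2 set (57.6%), 1 with SOX2 (60.1%) and 1 with the fusion (55.1%). The starts of EOMES, CER1, HHEX and CXCR4 and the outer start of GATA4 had no peak in any list. For GATA4 and SOX17 the lower end of the gene was used as the start, and other starts of GATA4 were not examined. Whether the sites below are exonic or intronic was not determined.

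EOMES encodes a T-box factor at the head of the endoderm programme, and its window (chr3:27665953-27772713) held 17 sites and the most FOXA2 gains. The strength of each peak is given as its deposited −log10 p and as the percentage of the list's entries at least as strong, so that a small percentage is a strong peak. The site with the strongest values was EOMES +25.3 kb (chr3:27696791-27697952), which lies outside any annotated gene. It had a −log10 p of 11.5 in full-length 1 (top 2.10%), 8.81 in CTD deletion 1 (top 13.2%), 4.62 in CTD deletion 2 (top 37.4%), 23.2 with SOX2 (top 6.66%) and 22.2 with the fusion (top 2.51%). No wild-type list called it, nor did full-length 2, so that it counts as gained with the CTD deletion, SOX2 and the fusion but not with full-length FOXA2. The 5 peak summits fell within 175 bp. The inputs behind the SOX2 entry had −log10 p values of 23.2 and 23.3 and those behind the fusion entry 22.2 and 26.7, so that the constructs overlapped.

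EOMES +41.4 kb (chr3:27680775-27681945) was gained with all 4 constructs. Its −log10 p was 6.32 in full-length 1 (top 15.1%), 15.6 in full-length 2 (top 38.7%), 4.69 in CTD deletion 1 (top 52.3%), 4.01 in CTD deletion 2 (top 54.5%), 10.5 with SOX2 (top 25.5%) and 9.36 with the fusion (top 22%). The wild type of the SOX2 set had an entry there of 6.21 that failed the IDR threshold, so that the site was not blank in those cells. Its inputs there had 6.21 and 12.9, which overlapped the 10.5 and 14.7 of SOX2 and the 9.36 and 11.4 of the fusion. The next 2 sites were upstream and called in the 4 FOXA2 construct lists and nowhere else. EOMES -4.4 kb (chr3:27726675-27727532), the FOXA2-gained site nearest to this gene's start, had 2.83 in full-length 1 (top 88.7%), 12.4 in full-length 2 (top 55.5%), 5.64 in CTD deletion 1 (top 36.3%) and 6.17 in CTD deletion 2 (top 18.5%). EOMES -27.7 kb (chr3:27750122-27750680) had 4.99 (top 25.9%), 10.5 (top 71.1%), 7.55 (top 19%) and 6.24 (top 18.1%) in the same order. These are peaks of middle or low rank, and both gains with full-length FOXA2 ended at a common −log10 p minimum of 5.43.

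A further pair of EOMES sites differed within the SOX2 set alone. EOMES -44.3 kb (chr3:27766541-27767479) was called with SOX2 (10.7, top 25.2%) and the fusion (7.06, top 32.6%) and in no other list. EOMES -26.4 kb (chr3:27748868-27749424) was called in the wild type of the SOX2 set alone (10.0, top 28.4%), with no entry of either construct at any IDR, so that it was lost with both. Another site was called in wild type 1 and in the SOX2-set wild type: EOMES -35.6 kb (chr3:27757805-27758831) was called in 7 lists, with −log10 p values of 6.72, 2.02, 5.19, 6.48, 22.5, 13.5 and 11.6 in wild type 1, full-length 1, CTD deletion 1 and 2, the SOX2-set wild type, SOX2 and the fusion.

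GSC encodes a homeobox factor of the organizer and mesendoderm. Its window (chr14:94718223-94820113) was the sparsest, with 5 sites. GSC +0.1 kb (chr14:94769586-94770343), which covers the start and most of the promoter shown above, was called in the wild type of the SOX2 set alone (7.63, top 37.9%). The SOX2 list had an entry of 3.88 there that failed the IDR threshold and the fusion list had none, so that the start counts as lost with both. At a global IDR of at most 0.01 neither loss was called. The other named site, GSC +21.1 kb (chr14:94748437-94749523), was gained with SOX2 (12.4, top 20.4%) and the fusion (7.65, top 30.4%), beside a failing wild-type entry of 6.52 whose inputs overlapped those of the fusion, and was also called in full-length 1 (4.65, top 33.2%) and CTD deletion 2 (4.01, top 54.5%).

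GATA4 and GATA6 encode zinc-finger factors that act early in endoderm and in heart. GATA4 (window chr8:11626935-11810002) had losses and no gain in the SOX2 set. None of its 17 sites was gained with SOX2 or the fusion, 2 were lost with SOX2 and 4 with the fusion. Of the 4 sites lost with the fusion, 3 lay in the GATA4 gene body. GATA4 +16.1 kb (chr8:11692195-11693906) had 6.5 in the wild type and 10.0 with SOX2, and a failing fusion entry of 5.62, with overlapping inputs in the wild type (6.5 and 8.74) and the fusion (5.62 and 8.36). GATA4 +50.0 kb (chr8:11726521-11727448) had 11.9 and 9.29, and a failing fusion entry of 4.47. GATA4 +69.7 kb (chr8:11746199-11747056) had 8.07 and 10.5, and a failing fusion entry of 3.88. These 3 sites were called in the wild type and with SOX2 and failed the IDR threshold with the fusion, which had the longest list of the set.

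Another site in the gene body was called with the fusion and not with SOX2. GATA4 +27.8 kb (chr8:11703794-11705715) had a −log10 p of 19.1 in the SOX2-set wild type (top 11.1%) and 15.1 with the fusion (top 8.58%), and a failing SOX2 entry of 5.95, so that it was lost with SOX2 alone. The loss rests on 1 input, since the SOX2 inputs had 5.95 and 22.3 and those of the wild type 19.1 and 19.4. In the FOXA2 set it was called in full-length 1 (4.59, top 34.3%), CTD deletion 1 (6.26, top 28.1%) and CTD deletion 2 (6.57, top 16.7%) and in neither wild type, and so counts as gained with the CTD deletion. The wild-type lists of the 2 sets thus differ at this site. These lists also differ in length and procedure, so whether the cells differ was not tested. GATA4 -34.4 kb (chr8:11641901-11643127) was lost with both SOX2 constructs, with 8.37 in the wild type and failing entries of 1.96 and 5.11. All 5 of these GATA4 sites kept an entry of the construct that lost them, so none counted as lost once absence meant no entry at any IDR.

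The strongest peaks of the GATA4 window belonged to its neighbours. GATA4 +125.8 kb (chr8:11801992-11803461), in FDFT1, the squalene synthase gene of cholesterol synthesis, was called in all 9 lists, within the top 0.935% of the SOX2-set wild type, 0.583% of SOX2 and 0.318% of the fusion. Its −log10 p was 5.15 and 13.4 in wild type 1 and 2, 11.2 and 49.6 in full-length 1 and 2, and 12.2 and 12.2 in the CTD deletion libraries. GATA4 +93.0 kb (chr8:11769113-11770775), in NEIL2, a DNA repair glycosylase gene, was called in 8 lists, all but wild type 2.

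GATA6 (window chr18:22119589-22252528) held the most sites, 21. At its start, GATA6 -0.3 kb (chr18:22169115-22169388) was called in full-length 1 (3.52, top 61.8%) and CTD deletion 1 (4.65, top 52.9%) only. All 3 lists of the SOX2 set had an entry there that failed the IDR threshold (3.35 in the wild type, 5.92 with SOX2 and 4.36 with the fusion), so that no construct of either set gained it. GATA6 -28.0 kb (chr18:22141012-22142079) was gained with SOX2 (11.8, top 22%) and the fusion (9.22, top 22.9%), with no wild-type entry at any IDR, and a weak peak in full-length 1 (2.83, top 88.7%).

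Downstream of GATA6, in a long non-coding RNA gene, 2 neighbouring sites were gained in the SOX2 set. GATA6 +61.2 kb (chr18:22230398-22231095) had 15.5 with SOX2 (top 14.7%) and 8.01 with the fusion (top 28.1%), beside a failing wild-type entry of 6.39 whose inputs overlapped those of the fusion. GATA6 +59.6 kb (chr18:22228865-22229583) was called with the fusion (11.1, top 16.9%), and its SOX2 entry of 5.28 failed the threshold. In the gene body, GATA6 +16.9 kb (chr18:22185976-22187093) was lost with both (7.40 in the wild type, failing entries of 3.20 and 3.44), and GATA6 +21.5 kb (chr18:22190805-22191417) was gained with the CTD deletion (4.26 and 3.41, both in the weaker part of their lists at top 58.5% and 65.1%). The site of the same RNA gene called in all 9 lists, GATA6 +54.2 kb (chr18:22223257-22224345), had −log10 p values of 6.95, 7.02, 4.59, 12.4, 4.70 and 10.1 in the FOXA2 set and 28.5, 25.6 and 19.9 in the SOX2 set. GATA6 +81.2 kb (chr18:22250390-22251204) and GATA6 +62.9 kb (chr18:22231998-22232949) were the strongest sites in wild type 1 (8.09) and wild type 2 (14.4), and GATA6 -33.1 kb (chr18:22136263-22136791) was the strongest in full-length 1 (4.65).

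SOX17 encodes the HMG-box factor that marks definitive endoderm, and its start was called in 6 of the 9 lists, more than that of any other member. SOX17 +0.3 kb (chr8:54457474-54459076) spans the start and extends into the gene. Its −log10 p was 8.61 in full-length 2 (top 87.6%), 6.59 in CTD deletion 1 (top 25.9%), 5.32 in CTD deletion 2 (top 26.1%), 18.9 in the SOX2-set wild type (top 11.3%), 23.9 with SOX2 (top 6.20%) and 16.0 with the fusion (top 7.39%). Neither wild type of the FOXA2 set and not full-length 1 called it, so that it was gained with the CTD deletion but not with full-length FOXA2. Since the wild type of the SOX2 set did call it, it is neither gained nor lost there. The wild-type lists of the 2 sets again differ, with the same limit.

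The gained site of the SOX17 window in the SOX2 set was SOX17 +26.2 kb (chr8:54483781-54484530), outside any annotated gene. It was called with SOX2 (17.2, top 12.2%) and with the fusion (20.8, top 3.19%), with summits 3 bp apart, and in no other list. The paired inputs had 23.5 and 17.2 for SOX2 and 21.3 and 20.8 for the fusion, and these ranges overlapped. SOX17 -26.1 kb (chr8:54431585-54432176) was gained with SOX2 only (6.65), between failing entries of 4.07 in the wild type and 3.39 with the fusion. SOX17 -9.4 kb (chr8:54448242-54448889) was lost with SOX2 only: the wild type had 6.92, the fusion 7.65 and SOX2 a failing entry of 4.36. The strongest sites in full-length 1 were SOX17 -31.4 kb (chr8:54426449-54426680) and SOX17 -7.0 kb (chr8:54450787-54450997), tied at 4.65 and each in no other list. Of the 19 sites of this window 15 were called in 1 list alone, where 61.5% of all regions were. The difference was not tested.

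CER1 encodes a secreted inhibitor of Nodal, BMP and Wnt signals. No site in its window (chr9:14667326-14772733) was gained with any construct, and its start, whose promoter holds the SOX motif shown above, was called in no list. CER1 +29.4 kb (chr9:14692731-14693951), in ZDHHC21, had 16.6 in the SOX2-set wild type (top 14.3%) and 14.7 with SOX2 (top 16.0%), and a failing fusion entry of 3.12, so that it was lost with the fusion alone. CER1 -46.0 kb (chr9:14768517-14768881), in FREM1, was lost with both, from a wild-type entry of 6.15 to failing entries of 4.36 with SOX2, whose inputs overlapped those of the wild type, and 2.14 with the fusion. In CTD deletion 2 the strongest site was CER1 +31.7 kb (chr9:14690818-14691154), at 6.07 (top 20.7%).

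HHEX encodes a homeobox factor of anterior endoderm and of liver and thyroid buds. In its window (chr10:92639955-92745647) lay the FOXA2 gain that held best. HHEX -29.7 kb (chr10:92659807-92660636), at an annotated pseudogene, had a −log10 p of 9.28 in full-length 1 (top 4.71%), 25.9 in full-length 2 (top 13.6%) and 6.07 in CTD deletion 2 (top 20.7%). Neither wild type of the FOXA2 set, CTD deletion 1 nor any list of the SOX2 set had a peak there, so that the site counts as gained with full-length FOXA2 but not with the CTD deletion. The 3 summits fell within 234 bp. The gain with full-length FOXA2 was kept in 13 of 13 alternatives. Leaving out libraries, calling from 1 library, the lists split by mitochondrial peaks and the wider flank cannot end such a gain. HHEX -29.7 kb was also kept with equal numbers of strongest peaks and with 50% cover, where the other gains with full-length FOXA2 ended. Since CTD deletion 2 called the site, it was not absent from the CTD deletion group.

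In the SOX2 set HHEX lost 2 sites with both constructs: HHEX +5.9 kb (chr10:92695615-92696183), at the end of the gene, and HHEX -45.3 kb (chr10:92644489-92644823), in KIF11, each at 6.15 in the wild type (top 47.6%). The gains were not shared. HHEX +47.8 kb (chr10:92737460-92738010) was gained with SOX2 (9.88, top 28.1%), with a failing fusion entry of 4.55, and HHEX -38.2 kb (chr10:92651455-92652009), also in KIF11, was gained with the fusion (6.57, top 37.0%), with a failing SOX2 entry of 4.36.

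CXCR4 encodes the chemokine receptor for CXCL12. Its window (chr2:136064349-136168149) held no called entry in the SOX2-set wild type. CXCR4 +44.5 kb (chr2:136073184-136074188) was gained with SOX2 (7.43, top 38.4%) and the fusion (10.7, top 17.9%), and full-length 1 also had a weak peak there (2.76, top 90.6%). CXCR4 -23.5 kb (chr2:136141324-136141894) was gained with SOX2 alone (6.42, top 45.8%), with a failing fusion entry of 3.48. The strongest site of the FOXA2 set was CXCR4 +32.2 kb (chr2:136085686-136086284). It had 12.4 in wild type 2, 5.09 and 16.6 in full-length 1 and 2, and 8.77 and 11.2 in CTD deletion 1 and 2, with no peak in wild type 1 and no entry in the SOX2 set. It was in all 4 construct lists of the FOXA2 set and is not gained only because wild type 2 called it.

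Counting genes in place of sites, 2 of the 8 windows held a site gained with full-length FOXA2 (73.4% of all protein-coding genes), 4 with the CTD deletion (69.5%), 6 with SOX2 (75.2%) and 6 with the fusion (76.7%). The same was counted for 17 other genes of Nodal signalling and mesendoderm, the ligands and cofactors NODAL, GDF3 and CRIPTO, the inhibitors LEFTY1 and LEFTY2, the receptors ACVR1B, ACVR2A and ACVR2B, the transducers SMAD2, SMAD3 and SMAD4, and the nuclear factors FOXH1, MIXL1, TBXT, LHX1, OTX2 and PRDM1. In these, 15, 11, 12 and 15 windows held a site gained with full-length FOXA2, the CTD deletion, SOX2 and the fusion. The difference between the endoderm and the signalling genes in the count for full-length FOXA2, 2 of 8 against 15 of 17, was not tested. A peak within 1 kb of the start was found in some list for 10 of the 13 pathway genes with a RefSeq start, among them ACVR1B, ACVR2A and SMAD3 in 8 lists each, whereas NODAL, MIXL1 and OTX2 had none.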

How the data were processed

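ATAC-seq peak lists of 12 U2OS samples were used as deposited. Per the submitters' processing notes, FastQC 0.10.1, Trim Galore, Bowtie2 2.4.4, SAMtools 0.1.18, MACS2 and deepTools 2.4.1 were used on build hg38; their settings are not given in the sources used here. The deposited −log10 p, the fold enrichment (a ratio over the library's own background) and the score of each peak are the authors' values, and −log10 p depends on depth, which is unknown. Peaks on chromosomes 1-22 and X were kept, and entries of the SOX2 set were called at a global IDR of at most 0.05. All peaks were merged into 1 set of regions, and a region was called in a list if a peak overlapped it by at least 1 bp. Rank in a list counts all entries with an equal or higher −log10 p, so that ties share the lowest standing. In the SOX2 set, entries failing the IDR threshold are counted too. Wild type 2 and full-length 2 have only 152 distinct values each. An exact permutation test of 2 against 2 libraries cannot go below p = 0.333, so no test was used. Wilson intervals are at 95% and cover counting error only. Sites named with coordinates are those gained or lost with any construct, called in all 9 lists, within 1 kb of a start, or strongest in a list. Where sites tied as strongest, not every one is named. The genes, the pathway and marker lists and the rules were chosen with earlier results of these data known. The motif search planned for the sites was not run, since no genome sequence was used here, and RefSeq promoters were searched in its place. Alternatives varied list length, threshold, overlap, summit windows, flank, calling rule, IDR and the libraries used. The counting was tested on simulated peaks. Python 3.11.15, numpy 2.4.6, pandas 2.3.3 and matplotlib 3.10.9 were used.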

Additional observations from a re-analysis of the deposited data

Results flagged for a closer look

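Entries of the SOX2 set that failed the IDR threshold are not used in the calls. At 5 of the sites the SOX2 list had such an entry where the wild-type list had no entry at all, and at 8 the fusion list did. Both were noted because they are entries outside the calls at sites the wild-type list does not hold; an entry that failed the threshold is no measure of a level above the wild type. The SOX2 and fusion lists have more entries (147763 and 177650, against 110813), and depth is unknown. The reverse, a failing wild-type entry with no construct entry, occurred at 3 sites for SOX2 and 2 for the fusion. None of these counts was made over all regions, so they are no result about these genes. At the GATA6 start all 3 lists had a failing entry.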

How the results depend on the processing

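The order of some counts turned. SOX2 went from 11 gained and 9 lost to 8 and 10 with equal numbers of strongest entries and 0 and 5 with a 10 kb flank. The fusion went from 10 and 11 to 7 and 3 at an IDR of at most 0.01 and 33 and 10 with all entries. The gains with full-length FOXA2 against the CTD deletion went from 4 and 7 to 1 and 0 with equal numbers. Of 423 checks of single sites under an alternative, 328 kept the call and 95 did not. Some checks could not end a call, such as the wider flank and, for gains with full-length FOXA2, leaving out a library. The kept share is thus no measure of support. With equal numbers of strongest peaks (19862 in the FOXA2 set, 48142 in the SOX2 set), 1 site was gained and 1 lost with full-length FOXA2, 0 gained with the CTD deletion, 1 called with full-length FOXA2 only and 6 gained with the fusion, and the sites called fell to 4 and 4 in full-length 1 and 2 and to 6 and 5 in CTD deletion 1 and 2. At a common −log10 p of at least 5.43, 2 sites were gained with full-length FOXA2, 3 with the CTD deletion, 1 with full-length only and 1 with the CTD deletion only. With a peak covering at least 50% of the region the values were 2 and 3 gained and 1 with the CTD deletion only, and with summit windows of 200 bp 1 with full-length only. A flank of 10 kb gave 1 and 4 gained with full-length FOXA2 and the CTD deletion, 0 gained and 5 lost with SOX2, 0 gained and 6 lost with the fusion, and 4, 1, 17, 5, 12, 13, 12, 7 and 6 called sites in the 9 lists. A flank of 100 kb gave 9 and 14 gained with the FOXA2 constructs, 3 and 3 with 1 construct only, 23 SOX2 and 27 fusion gains, and 105, 26, 46, 81, 42 and 44 sites in full-length 1 and 2, CTD deletion 1 and 2, SOX2 and the fusion. Leaving out each library in turn gave 5 to 50 gained and 0 to 2 lost with full-length FOXA2, 9 to 41 gained and 0 to 1 lost with the CTD deletion, 0 to 32 with full-length only and 0 to 22 with the CTD deletion only. Each leave-out let 1 library stand alone for its group, a looser rule than the main one. Calling a group from 1 library gave 53 gained and 2 lost with full-length FOXA2, 54 gained and 1 lost with the CTD deletion, and 33 and 34 with 1 construct only. Lists with mitochondrial peaks gave 52 gained and 4 lost with full-length FOXA2, 1 lost with the CTD deletion, 32 with full-length only and 1 with the CTD deletion only; lists without gave 9 gained and 1 lost, and hold no CTD deletion library. An IDR of at most 0.01 gave 3 lost with SOX2 and 3 with the fusion; all entries gave 30 and 33 gained; absence only with no entry at any IDR gave 7 gained and 3 lost with SOX2 and 3 lost with the fusion. Separate region sets for the 2 sets, chosen after seeing the data, changed none of the 10 counts of gained, lost or construct-only sites. The cause of the other changes was not tested. No paired analysis was possible because the results come from no test. The motif search in sites was not run.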
